A study of Mus musculus with 12 samples.

Results

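The respiratory chain and ATP synthase genes described here are the nuclear genes for subunits and named assembly factors of mitochondrial complexes I to V. They were taken by symbol from the platform annotation: every symbol that starts with Nduf, Uqcr, Atp5 or Cox4 to Cox8, the genes Sdha to Sdhd, Cyc1 and Cycs. The rule used no measured value. It found 86 genes with 128 probes among 17711 genes and 46632 probes, and 66 of the 86 had enough signal to be tested, among 7306 genes tested in all. Complex I contributed 40 genes, complex II 4, complex III 8, complex IV 17 and complex V 16, and Ndufa4, which has a complex I name but is now placed in complex IV, was kept apart. Cycs is not in the annotation table used here, and the subunits encoded by mitochondrial DNA lie outside the rule.

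The samples are total RNA from 6 mouse tumour-derived cell lines, 3 labelled as carrying constitutively active STAT3 and 3 labelled as carrying wild-type STAT3, each hybridised to 2 Illumina bead arrays. All lines were grown in the same way, in RPMI medium with foetal calf serum, and none is labelled with a treatment, so that both groups are untreated cultures. The sample titles name neither the tumours' tissue nor the allele, its promoter, or whether a line is a clone. The column headers of the raw values write stat3c for the constitutively active samples, without further detail. Each genotype is represented by its 3 lines. The 2 arrays of a line are not said to come from separate cultures, so the error in tests that rest on them is the variation from array to array, which can be purely technical. A batch that went with genotype cannot be told apart from it.

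The respiratory chain passes electrons from NADH through complex I, and from succinate through complex II, to ubiquinone, then through complex III and cytochrome c to complex IV, which reduces oxygen. Complexes I, III and IV pump protons across the inner mitochondrial membrane, and complex V, the ATP synthase, uses the return flow to make ATP. Most subunits are encoded in the nucleus, and several promoters of these genes are known to bind NRF1, GABP (an ETS-family factor) or YY1. STAT3 is a transcription factor that binds sites called GAS elements, and it is also known to affect respiration from within mitochondria. The arrays measured transcripts only, so they hold no measure of respiration.

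Promoter sequence from RefSeq (GRCm38.p6) was available for 70 of the 86 genes. In the 250 bases before the start of transcription, on either strand, the NRF1 motif (GCGCA and GCGC parted by any 1 base) was found in 11 of the 70 (15.7%), against 10.1% of all tested genes and 4.23% of the 27025 genes in the promoter table. The ETS motif CCGGAAG was found in 13 (18.6%), against 16.9% of tested genes and 7.83% of all. The GAS motif TTCNNNGAA was found in 5 (7.14%), against 7.18% of tested genes and 8.13% of all, and the YY1 motif AAGATGGC in 1 (1.43%), against 2.43% and 1.83%. The 70 include genes that were not tested. Among the 56 that were tested, the shares were 14.3% for NRF1, 19.6% for ETS, 7.14% for GAS and 1.79% for YY1. These motif shares lay within a few percentage points of those among all tested genes, with NRF1 showing the widest gap. A match describes the letters in this window and is not evidence of binding.

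The 120 bases before the start are shown for 6 of the genes named below, as the gene's own strand, with any match to these motifs in capitals. Ndufv2, Atp5pb, Ndufb7 and Ndufs3 had lower signal in every constitutively active line than in every wild-type line, and Ndufaf4 and Ndufb6 had the most positive genotype differences. Ndufv2 (chr17:66101560-66101679, minus strand) held no match here. Atp5pb (chr3:105959264-105959383, minus strand) and Ndufb6 (chr4:40279422-40279541, minus strand) held a GAS match. Ndufb7 (chr8:83566638-83566757, plus strand) and Ndufs3 (chr2:90904722-90904841, minus strand) held an ETS match, and Ndufaf4 (chr4:24897963-24898082, plus strand) an NRF1 match.
Ndufv2: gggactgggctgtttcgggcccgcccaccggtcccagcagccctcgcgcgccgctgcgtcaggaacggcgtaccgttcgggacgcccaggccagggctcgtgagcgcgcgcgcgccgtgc
Atp5pb: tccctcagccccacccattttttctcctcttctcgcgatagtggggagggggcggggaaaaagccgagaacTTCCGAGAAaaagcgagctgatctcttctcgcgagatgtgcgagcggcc
Ndufb7: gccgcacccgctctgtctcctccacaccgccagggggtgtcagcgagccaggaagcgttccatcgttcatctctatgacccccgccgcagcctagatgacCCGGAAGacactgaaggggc
Ndufs3: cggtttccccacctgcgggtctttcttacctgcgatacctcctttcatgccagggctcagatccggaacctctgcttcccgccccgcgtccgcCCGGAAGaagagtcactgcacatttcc
Ndufaf4: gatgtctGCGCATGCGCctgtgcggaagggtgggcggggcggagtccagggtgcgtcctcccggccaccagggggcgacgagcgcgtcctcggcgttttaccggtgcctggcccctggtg
Ndufb6: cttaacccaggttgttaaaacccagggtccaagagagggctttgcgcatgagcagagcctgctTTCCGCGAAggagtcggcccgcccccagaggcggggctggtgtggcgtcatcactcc

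Per array, 11002 to 12798 probes were detected (23.6% to 27.4%), and correlations between both arrays of each line, taken over genes, were 0.993 to 0.998. Between these arrays the median absolute difference of the tested respiratory genes was 0.06 to 0.09 on the log2 scale. The median raw signal of the tested respiratory genes was 5396 to 7777 in constitutively active lines, against 3209 to 5835 in wild-type lines, per array, a gap that quantile normalization takes out. Of the epithelial markers, Krt8, Krt18 and Cdh1 were detected on all 12 arrays, Krt19 on 8 (mean 8.37 in constitutively active lines, against 6.43 in wild-type lines) and Epcam on none. Among markers of other cells, Ptprc, Cd3e, Adgre1 and Itgam of leukocytes, Pecam1, Cdh5 and Tek of endothelium and all 3 adipocyte markers were detected on no array, whereas Kdr of endothelium was detected on all 12. Of 6 fibroblast markers, Pdgfra was detected on all 12 arrays, Col1a1 on 2, and Pdgfrb, Dcn, Col3a1 and Lum on none. Their part in the results was not tested. Stat3 itself read 12.17 ± 0.63 in constitutively active lines, against 12.66 ± 0.21 in wild-type lines (limma adjusted p = 0.898), and its probe is not known here to tell the alleles apart. In such bulk RNA, fewer cells of a type and less RNA per cell cannot be told apart.

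Nearly all tested respiratory genes were detected in every line. Of the 66 tested genes, 64 were detected on all 12 arrays. Of the 20 that were not tested, 15 were detected on no array: Ndufs1, Ndufb2, Ndufb4, Ndufb10, Ndufaf6, Sdha, Uqcrfs1, Cox4i2, Cox6a2, Cox6b2, Cox7b, Cox7b2, Cox8b, Cox8c and Atp5md. Several of these, such as Sdha, the flavoprotein of complex II, and Uqcrfs1, the Rieske iron-sulfur protein of complex III, are needed for their complexes to work, so an undetected probe here does not show that the transcript is missing. The other 5 were detected on few arrays: Ndufb9, Ndufb11 and Atp5e on 1 wild-type array each, Sdhd on 0 constitutively active and 3 wild-type arrays, and Atp5o on 1 constitutively active and 4 wild-type arrays.

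Complex IV has subunits with tissue-restricted isoforms. All 7 such isoforms listed (Cox4i2, Cox6a2, Cox6b2, Cox7a1, Cox7b2, Cox8b and Cox8c) were looked at, and Cox7a1, known from heart and skeletal muscle, was the single one detected, on 6 of 12 arrays. The general isoforms Cox4i1, Cox6a1, Cox6b1, Cox7a2 and Cox8a were all tested, whereas Cox7b was detected on no array. Cox4i1, the general isoform of a regulatory subunit of complex IV, read 14.56 ± 0.05 in constitutively active lines, against 14.53 ± 0.03 in wild-type lines (log2 signal, SD, n = 3 lines each).

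**Figure D1:**
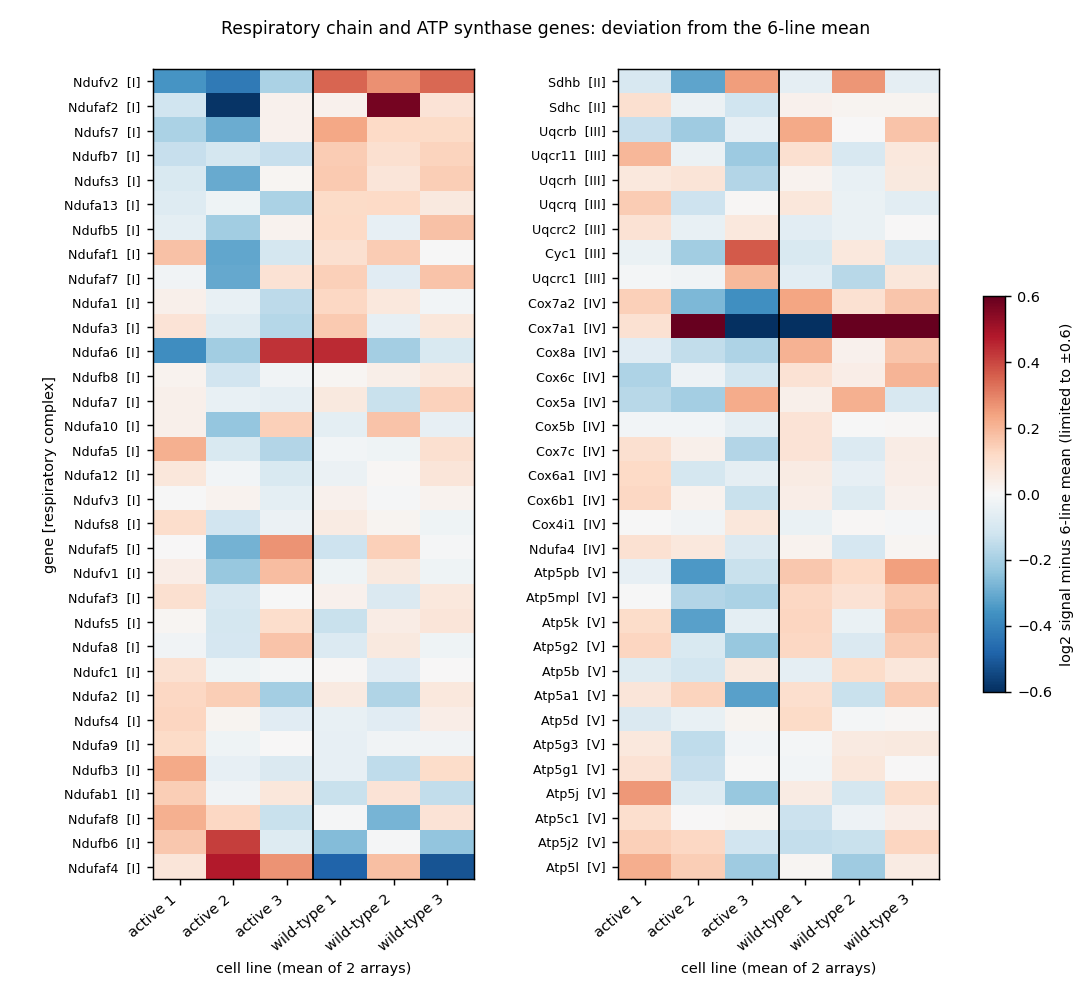
Deviation of each tested respiratory gene (rows, by complex) from its own mean over the 6 lines, in log2 units, with constitutively active lines 1 to 3 left of wild-type lines 1 to 3. Most of the 66 rows are pale in every line, and Cox7a1 shows the widest swings within both genotypes.

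Between genotypes, the respiratory genes differed little and none passed the test. Of the 66 genes, 52 (78.8%) had a difference under 0.2 in size on the log2 scale, against 64.6% of all tested genes, and the 95% confidence interval lay within 0.5 of 0 for 47. The respiratory genes were bright, with a median percentile of mean signal of 93.4 among all tested genes. The sets were not matched for signal, and the part of signal level in these shares was not tested. With limma's moderated test on line means and Benjamini-Hochberg adjustment over all 7306 genes, 0 of 66 passed at 0.05, and 0% of all genes did. At an unadjusted p under 0.05 there were 5, all lower in the constitutively active lines (Ndufv2, Atp5pb, Ndufb7, Cox8a and Ndufs7), which is 7.58% of 66, against 5.61% of all genes in either direction 3.59% lower and 2.03% higher. Without constitutively active line 2, wild-type line 1 or wild-type line 3, that count was 1. With a common median over the probes kept, or with line as a random block, the 5 became 3 lower and 2 higher, and with a common median over all probes 1 lower and 5 higher. The smallest adjusted p was 0.854, and differences named below as higher or lower describe these lines and did not pass.

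Small differences leaned to lower values in the constitutively active lines. In all, 45 genes were lower and 21 higher (68.2% lower, against 47.5% of all tested genes), with a median of -0.04, against 0.01 over all genes. In 12 genes (18.2%) all 3 constitutively active lines lay below all 3 wild-type lines, and in 0 above, against 6.47% below and 5.97% above among all genes. Groups of fewer lines separate more often, and without constitutively active line 1 there were 24 below and 1 above (11.6% and 11.5% of all genes), without constitutively active line 3 there were 18 and 6 (13.1% and 12.7%). The count of lower genes depended on the scaling of the arrays. With each array set to a common median over the probes kept, the median of all genes was 0.02, and 34 respiratory genes were higher. The non-overlapping respiratory genes then came to 10 below and 1 above (6.93% and 6.97% of all genes). The lines of Ndufs3, Ndufs7 and Cox5b overlapped with that scaling. With a common median over all 46632 probes, a scaling chosen after seeing the data, the median of all genes moved to 0.21. Then 53 respiratory genes were higher and 13 lower, with 1 gene wholly below and 24 above (1.44% and 22.7% of all genes). Both median scalings subtract a constant from each array, so between them every gene's genotype difference shifts alike. The share of all genes that were higher was not counted with either scaling, so the counts of 34 and 53 have none beside them. With either scaling the median difference of the respiratory genes stayed below the median of all genes.

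**Figure D2:**
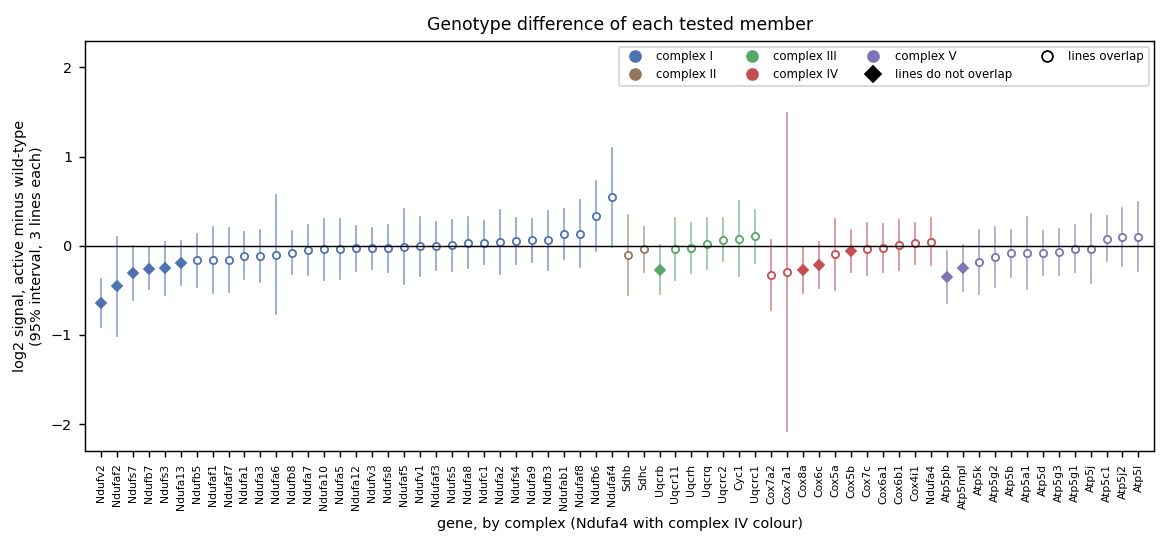
Log2 signal of constitutively active minus wild-type lines for the 66 tested respiratory genes, grouped by complex, with 95% confidence intervals from limma (3 lines against 3). The point farthest below 0 is Ndufv2 at -0.65, the point farthest above is Ndufaf4 at 0.55, and Cox7a1 has the widest interval.

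In complex I, all 5 tested core subunits were lower in the constitutively active lines, with a median of -0.25. With a common median over the probes kept, 3 were lower and 2 higher. Over all probes the counts were 2 and 3, where the median of all genes was 0.21. The 21 accessory subunits divided into 9 higher and 12 lower and the 7 assembly factors into 2 higher and 5 lower. Core subunits carry the flavin, the iron-sulfur clusters and the ubiquinone site. Ndufv2, an iron-sulfur subunit of the NADH-oxidising tip of complex I, stood farthest apart. It read 9.28 and 9.05 on the arrays of constitutively active line 1, 9.05 and 9.14 on those of line 2 and 9.35 and 9.31 on those of line 3, against 10.15 and 9.60, 9.79 and 9.80, and 9.78 and 9.95 in wild-type lines 1 to 3. All 6 constitutively active arrays were below all 6 wild-type arrays, and the line means were 9.20 ± 0.12 and 9.85 ± 0.04, a difference of -0.65 (95% confidence interval -0.91 to -0.38, limma adjusted p = 0.854). It kept its sign at -0.43 with the scaling over all probes.

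Ndufs7, the core subunit that holds the iron-sulfur cluster next to the ubiquinone site, had line means of 11.08, 10.98 and 11.30 in constitutively active lines, against 11.50, 11.39 and 11.39 in wild-type lines. The lines were apart by less than 0.1 at their nearest, since constitutively active line 3 came close to wild-type lines 2 and 3, and the genotype difference was -0.31 (limma adjusted p = 0.854). Ndufs3, a core subunit of the arm that passes electrons towards ubiquinone, had 11.57, 11.36 and 11.68, against 11.82, 11.74 and 11.81, a difference of -0.25. A second kept probe of Ndufs3 gave 0.07, so the probes disagreed in direction, and with the scaling over all probes the probe used read 0.02. The other core subunits, Ndufv1, which binds NADH, and Ndufs8, differed by -0.00 and -0.03.

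Ndufb7, an accessory subunit of the membrane arm, had tight groups. Its line means were 8.89, 8.92 and 8.89 in constitutively active lines, against 9.18, 9.13 and 9.16 in wild-type lines, a difference of -0.26 that was many times the SD over lines (0.02 and 0.03), although limma, which shares the spread over genes, gave an adjusted p of 0.854. With the scaling over all probes the difference read -0.06, beside a median of 0.21 over all genes. Ndufa13, also known as GRIM-19, is an accessory subunit that is known to bind STAT3, and it read 13.17 ± 0.08 in constitutively active lines, against 13.37 ± 0.03 in wild-type lines, again with no overlap of lines. The most positive difference of an accessory subunit was that of Ndufb6, at 12.67 ± 0.25 against 12.34 ± 0.14 (difference 0.33, limma adjusted p = 0.858), with overlapping lines. Ndufs4, an accessory subunit near the NADH-oxidising tip, differed by 0.05 with the probe used, whose lines overlapped. With 2 other kept probes it differed by -0.34 and -0.17, and there the constitutively active lines all lay below the wild-type lines.

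Of the 7 assembly factors, Ndufaf4 and Ndufaf2 had differences of opposite sign, and the other 5 lay between -0.16 and 0.14. Ndufaf4 had line means of 10.35, 10.76 and 10.55 in constitutively active lines, against 9.80, 10.46 and 9.76 in wild-type lines. Wild-type line 2 lay inside the range of the constitutively active lines while the other two lay below it, and the difference was 0.55 (95% confidence interval -0.01 to 1.10, limma adjusted p = 0.854). Its second kept probe gave 0.49, and with that probe the lines did not overlap. It read 9.18, 9.31 and 9.13 in constitutively active lines, against 8.76, 9.09 and 8.29 in wild-type lines. Ndufaf2, a factor related in sequence to the accessory subunit Ndufa12, went the other way, with 8.55, 8.08 and 8.69 against 8.69, 9.24 and 8.75. The highest constitutively active line and the lowest wild-type line of Ndufaf2 were level to 2 decimals, and the difference was -0.46 (limma adjusted p = 0.858).

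In complex II, the tested genes were Sdhb, the iron-sulfur subunit, and Sdhc, a membrane anchor. Sdhb read 9.55 ± 0.29 in constitutively active lines, against 9.65 ± 0.18 in wild-type lines, and Sdhc 12.76 ± 0.11 and 12.80 ± 0.01. Their differences of -0.11 and -0.04 were smaller than the SD over the constitutively active lines. Both were positive with the scaling over all probes, as was the median of all genes at 0.21.

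In complex III, 4 genes were higher and 3 lower, with a median of 0.02. The core proteins Uqcrc1 and Uqcrc2 differed by 0.11 and 0.07, and Cyc1, the haem protein that hands electrons to cytochrome c, by 0.08. Uqcrb, a small subunit near the ubiquinone site, had 7.45, 7.38 and 7.54 in constitutively active lines, against 7.82, 7.59 and 7.76 in wild-type lines, which do not overlap (difference -0.27, limma adjusted p = 0.854).

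In complex IV, 8 of 10 tested genes were lower and 2 higher in the constitutively active lines, with a median of -0.08. Cox8a, the general isoform of subunit VIII, read 13.24 and 13.13, 13.03 and 13.19, and 13.11 and 13.03 on the arrays of constitutively active lines 1 to 3, against 13.45 and 13.48, 13.30 and 13.26, and 13.41 and 13.43 in wild-type lines 1 to 3. Every constitutively active array was below every wild-type array, and the difference of the line means was -0.27 (95% confidence interval -0.53 to -0.01, limma adjusted p = 0.854). Cox6c, another small nuclear subunit, read 11.19 ± 0.08 against 11.41 ± 0.08, without overlap of lines, and Cox5b differed by only -0.06 although its lines did not overlap. A second kept probe of Cox5b gave 0.05 with overlapping lines. Cox7a2 was lower on average, at 7.58 ± 0.27 against 7.91 ± 0.07, but constitutively active line 1 lay within the wild-type range. With the scaling over all probes Cox8a read -0.04 and Cox6c 0.04, beside a median of 0.21 over all genes.

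Ndufa4, the complex IV component with a complex I name, read 14.39 ± 0.10 in constitutively active lines, against 14.35 ± 0.07 in wild-type lines, a difference of 0.05 with a 95% confidence interval of -0.22 to 0.31.

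In complex V, 10 of 13 genes were lower and 3 higher, with a median of -0.08. Atp5pb, the subunit b of the peripheral stalk that holds the catalytic head still, read 10.93 and 10.73, 10.51 and 10.57, and 10.63 and 10.87 on the arrays of constitutively active lines 1 to 3, against 11.18 and 10.91, 11.09 and 10.91, and 11.07 and 11.18 in wild-type lines 1 to 3. The line means did not overlap (10.70 ± 0.15 and 11.06 ± 0.06), though the highest constitutively active array passed the lowest wild-type ones, and the difference was -0.35 (95% confidence interval -0.64 to -0.06, limma adjusted p = 0.854). Atp5mpl, a small membrane subunit, read 12.98 ± 0.10 against 13.23 ± 0.04, and Atp5k, subunit e of the membrane part, 7.39 ± 0.22 against 7.57 ± 0.12. The catalytic Atp5b and the central shaft Atp5c1 differed by -0.09 and 0.08. The 3 genes of the same c-ring protein, Atp5g1, Atp5g2 and Atp5g3, differed by -0.03, -0.13 and -0.07. With the scaling over all probes these 3 were positive, as was the median of all genes at 0.21.

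**Figure D3:**
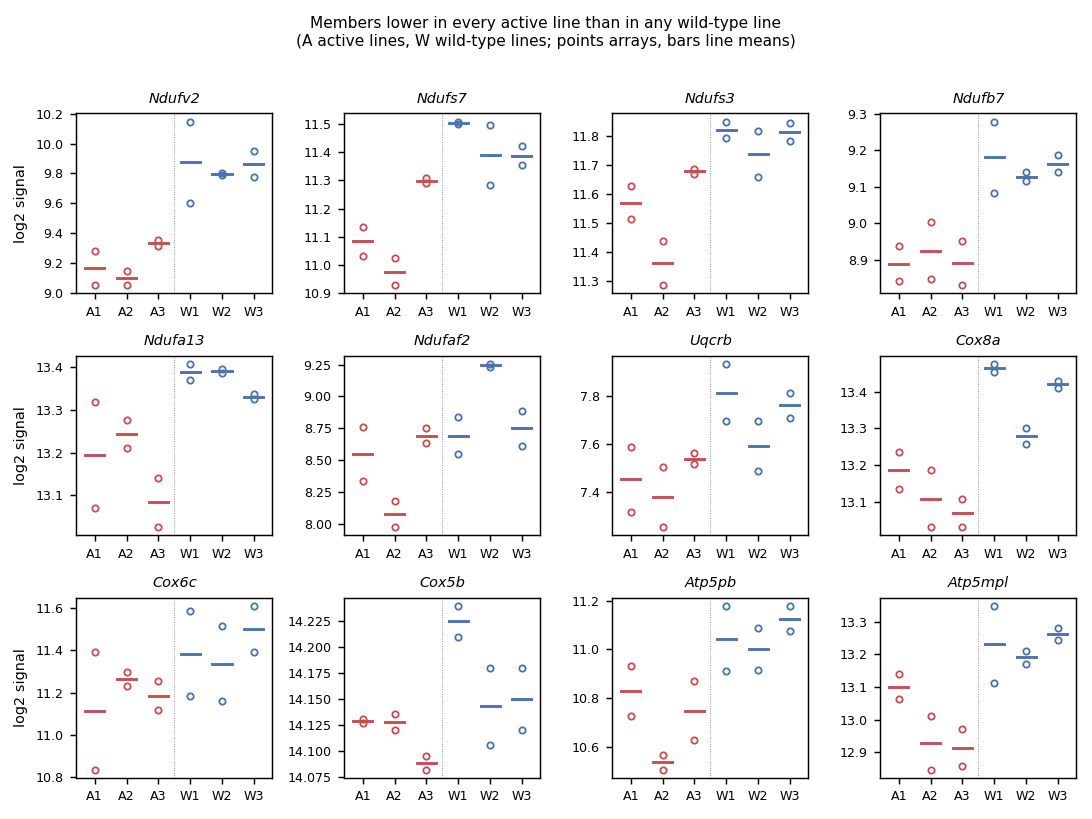
Log2 signal on each array (points) and line means (bars) of the 12 respiratory genes whose 3 constitutively active lines all lay below the 3 wild-type lines. Constitutively active lines stand on the left of each panel. Ndufv2, Ndufb7, Cox8a and Ndufa13 are also apart array by array, whereas the arrays of the other 8 overlap.

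Genes that work with the respiratory chain did not pass the genotype test either. Complex IV assembly factors divided into 9 higher and 5 lower of 14 tested (median 0.03), complex I assembly factors outside the rule into 4 and 2 of 6 (median 0.09), those of complexes II, III and V into 4 and 4 of 8 (median 0.00), and the nuclear regulators of mitochondrial genes into 6 and 5 of 11 (median 0.03). The citric acid cycle genes divided into 6 higher and 7 lower of 13 (median -0.04), the ATP export, phosphate import and uncoupling genes into 1 and 4 of 5 (median -0.10), and the mitochondrial ribosomal proteins into 37 and 29 of 66 (median 0.03), beside a median of 0.01 over all genes.

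Tfam, which packages and transcribes mitochondrial DNA, read 9.12 ± 0.11 in constitutively active lines, against 9.56 ± 0.10 in wild-type lines, with no overlap (difference -0.43), and Twnk, the mitochondrial DNA helicase, differed by 0.30. Vdac2, a channel of the outer membrane, read 10.09 ± 0.48 against 10.67 ± 0.07 (difference -0.58), and Slc25a3, the phosphate carrier, differed by -0.37. Cox20, an assembly factor of complex IV, read 8.21 ± 0.03 against 8.72 ± 0.31 (difference -0.51), and Coa5, another, differed by -0.30. Acad9, which assembles complex I, read 8.30 ± 0.10 against 8.64 ± 0.21, and Tmem186, another assembly factor, differed by 0.23. Mrps18c, a protein of the small mitochondrial ribosomal subunit, read 7.98 ± 0.22 against 8.70 ± 0.20 (difference -0.71), and Mrpl54 of the large subunit differed by -0.32. The remaining named pairs were Atpaf2 and Sdhaf1, assembly factors of complexes V and II, at 0.21 and -0.22, and Dlst and Suclg1 of the citric acid cycle at 0.16 and -0.18. Limma's adjusted p for these 14 genes lay between 0.854 and 0.898.

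Within a genotype, some respiratory genes differed between lines by more than their arrays did. Among the constitutively active lines 28 of 66 passed limma's moderated F test at an adjusted p of 0.05 (42.4%), against 60.9% of all tested genes. Among the wild-type lines 8 passed (12.1%), against 46.4% of all. The 8 were Ndufb6, Ndufaf2, Ndufaf4, Ndufaf5, Ndufaf8, Cox5a, Cox7a1 and Atp5j2. All 8 also passed among the constitutively active lines, whereas 38 passed in neither. For Ndufaf4 a second kept probe did not pass among the constitutively active lines (adjusted p = 0.361, limma's F test over all kept probes). How many of all genes passed in both or in neither was not counted, so this overlap is not known to be particular to respiratory genes. The counts of the genotypes were not tested against each other. The median span from the lowest to the highest line for respiratory genes was 0.25 in constitutively active lines, against 0.16 in wild-type lines, against 0.41 and 0.32 for all genes. Respiratory genes and all genes were not matched for signal here either. In complex I, 6 of 7 assembly factors passed among constitutively active and 4 of 7 among wild-type lines, 6 and 1 of 21 accessory subunits, and 3 and 0 of 5 core subunits, and these roles were not tested against each other.

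Differences that passed and spanned more than 0.5 were found in 7 genes among the constitutively active lines (10.6%, against 39% of all genes) and in 3 among the wild-type lines (4.55%, against 28.3%). Cox7a1, the muscle isoform, varied most. It read 6.19 and 6.20 in constitutively active line 1, 7.12 and 6.58 in line 2 and 4.70 and 4.97 in line 3, against 4.81 and 5.03, 6.97 and 6.99, and 6.86 and 6.86 in wild-type lines 1 to 3. It was detected on both arrays of constitutively active line 2 and of wild-type lines 2 and 3 and not well above background elsewhere, so that the high and the low lines did not follow the genotype. Where the dim line was not detected, the fold is a bound, taken as the mean of the bright line against, on each array, the higher of the probe's own signal and the lowest detected signal. Cox7a1 was brighter in constitutively active line 2 by at least 1.43-fold over line 1 and at least 1.5-fold over line 3, and at least 1.71-fold brighter in wild-type line 2 than in wild-type line 1. It had the 3 lines with signal that the filter needs and no more, so its passing the F test in both genotypes sets lines with signal against lines at background, and it is part of the counts of 7 and 3.

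Ndufa6, an accessory subunit of complex I, was also dim. It was not detected in constitutively active line 1, and line 3 was at least 1.49-fold brighter (limma adjusted p of this pair = 0.0118). Assembly factors gave some of the other wide spans. Ndufaf5 read 8.91, 8.62 and 9.18 in constitutively active lines 1 to 3 (limma adjusted p = 0.000316) and 8.78, 9.05 and 8.90 in wild-type lines 1 to 3 (0.0402). Its order of lines differed between the genotypes, with line 2 lowest among constitutively active and highest among wild-type lines. Ndufaf2 was lowest in constitutively active line 2 and highest in wild-type line 2 (adjusted p = 0.00969 and 0.0184 in limma's F test). Ndufaf2 and Ndufaf5 thus shared that order. Ndufaf4 was 0.66 higher in wild-type line 2 than in wild-type line 1 and 0.70 lower in wild-type line 3 than in line 2 (limma adjusted p = 0.0016 and 0.0012).

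Subunits with wide spans among the constitutively active lines were Cyc1, Sdhb and Cox7a2. Cyc1 read 12.13, 11.96 and 12.54 in lines 1 to 3, with line 3 highest (limma adjusted p = 0.00265), and 12.08, 12.24 and 12.07 in wild-type lines 1 to 3. Sdhb read 9.50, 9.28 and 9.85 (limma adjusted p = 0.00486), and 9.55, 9.86 and 9.55 in the wild-type lines. Cox7a2 had its highest value in line 1, with 7.89, 7.47 and 7.38 (limma adjusted p = 0.00708), and 7.98, 7.84 and 7.91 in the wild-type lines. Probes could disagree here too: for Ndufb8, an accessory subunit, the probe used gave an adjusted p of 0.886 among wild-type lines and a second kept probe 0.000304 (limma's F test over all kept probes), with 7.55 and 7.79 in wild-type lines 1 and 2 and a lower value in line 3.

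**Figure D4:**
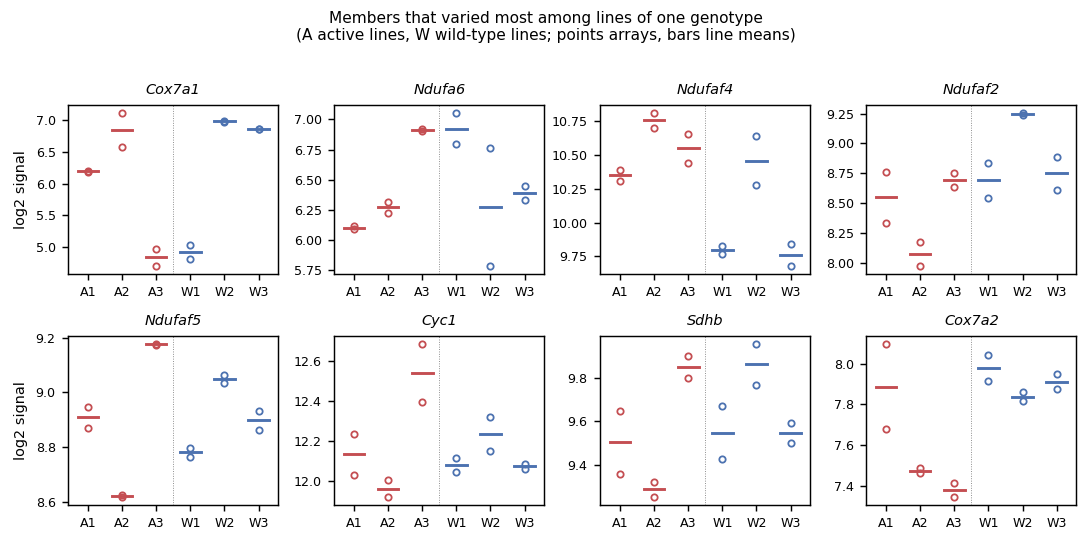
Log2 signal on each array (points) and line means (bars) of 8 respiratory genes whose lines of a genotype spanned more than 0.5, with constitutively active lines (A) left of wild-type lines (W) and a separate scale in each panel. In Cox7a1, constitutively active line 3 and wild-type line 1 are low, near 4.9.

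Pairs of lines were compared in the same model. Of the 66 genes, 15 (22.7%) were lower and 5 (7.58%) higher in constitutively active line 3 than in line 1. Of all genes 23% were lower and 23.7% higher, so the share lower was near that of all genes. Against line 2 of this genotype, line 3 had 8 lower (12.1%) and 12 higher (18.2%), beside 23.4% and 26.9% of all genes. Against line 1, line 2 had 8 lower (12.1%) and 3 higher (4.55%), beside 13.6% and 14.8% of all genes. Wild-type line 2 had 2 lower (3.03%) and 5 higher (7.58%) than wild-type line 1, beside 18.2% and 15.7% of all genes. Wild-type line 3 had 0 lower and 2 higher (3.03%) than line 1, beside 10.3% and 12% of all genes. It had 5 lower (7.58%) and 4 higher (6.06%) than wild-type line 2, beside 18.2% and 19.1% of all genes. Past the test or not, 54 of 66 genes (81.8%) were lower in constitutively active line 2 than in line 1, against 54.7% of all tested genes. With a common median over the probes kept there were 59 (89.4%, against 57.9%), and with one over all probes 23 (34.8%, against 21.6%).

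The 15 genes lower in constitutively active line 3 than in line 1 included 5 of complex V, namely Atp5j, Atp5l, Atp5a1, Atp5g2 and Atp5j2. The others were Ndufa2, Ndufa5, Ndufb3, Ndufb6 and Ndufaf8 of complex I, Uqcr11 and Uqcrh of complex III, and Cox7a1, Cox7a2 and Cox7c of complex IV. Cox7a1 was not detected in either of these lines, so its call compares signals at background, and 14 remain without it. Atp5l, subunit g of the membrane part, fell by 0.43 (limma adjusted p = 0.0038), and Atp5j, a peripheral stalk subunit, by 0.49 (limma adjusted p = 0.0029). The 5 higher genes were Ndufa6, Ndufaf5, Sdhb, Cyc1 and Cox5a, and Cox5a rose by 0.39 (limma adjusted p = 0.0036).

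Both sets were then read in the wild-type lines, which this contrast did not use, as a description and with no test. The pairs of wild-type lines set beside it were picked after their values were seen, and line numbers do not match across genotypes. Of the 14 without Cox7a1, 13 were higher in wild-type line 3 than in line 2 (median 0.22), against 45 of 66 of all tested respiratory genes (median 0.07), and 12 were lower in wild-type line 2 than in line 1, against 41 of 66. Of the 5, 4 were lower in wild-type line 3 than in line 2 (median -0.16). Respiratory genes that were low in constitutively active line 3 tended to be low in wild-type line 2, and Sdhb, Cox5a, Cyc1 and Ndufaf5 to be high there. These differences were mostly too small to pass. The same reading was not made over all tested genes, so the tendency is not known to be particular to respiratory genes. The count of 15 and 5 became 9 and 7 with a common median over kept probes and 2 and 1 with a common median over all probes. With 1 array of constitutively active line 1 left out it was 11 and 3 or 10 and 4, and with 1 array of line 3 left out 12 and 2 or 11 and 3.

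**Figure D5:**
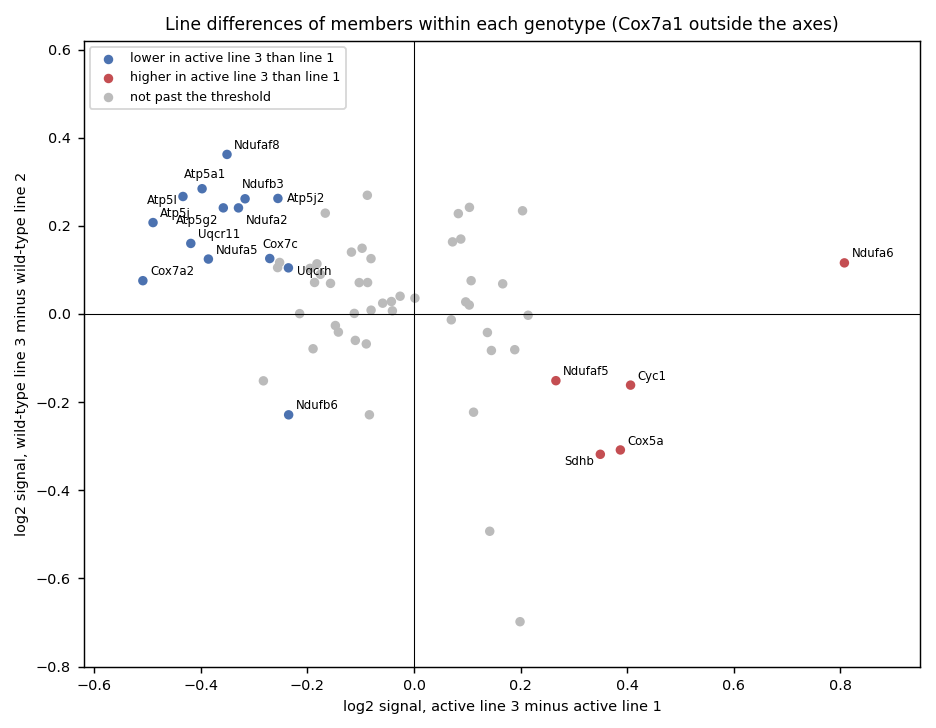
Each point is a tested respiratory gene, with its log2 difference of constitutively active line 3 minus line 1 on the horizontal axis and of wild-type line 3 minus line 2 on the vertical axis. Blue marks the genes lower and red those higher in constitutively active line 3 at an adjusted p under 0.05, and Cox7a1 lies outside the axes. Most blue points lie in the upper left and 4 of 5 red points in the lower right.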

How the data were processed

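The deposited raw table holds bead intensity per probe and array on a linear scale, per the file headers, and a detection fraction from 0 to 1, also deposited, of which 1 minus the value was used as detection p. A deposited table of log2 values from the authors served as an alternative. BeadStudio 3.1.7 and lumi are listed in the submitters' processing notes, without the steps that led to the log2 values. Depth has no equivalent on arrays, where the number of arrays limits the precision.

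From the intensities, limma 3.58.1 (R 4.3.3, neqc) gave log2 values after normexp background correction (offset 16) and quantile normalization. The offset understates folds of dim probes. Kept probes had a detection p under 0.01 on both arrays of a line in 3 or more of the 6 lines (11650, 79 of them of respiratory genes), and the kept probe with the highest mean stood for each gene. In the annotation, 29976 probes had 1 symbol, 10 had several, which named no gene, and 16646 were unnamed here. For the array's design no build is given here, and coordinates are those of RefSeq's promoter table.

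Genotypes were compared over line means, 3 against 3, with lmFit and eBayes, two-sided, and lines of a genotype by a moderated F test with arrays within a line as residual, both with Benjamini-Hochberg adjustment over all 7306 genes. With 3 lines a side the smallest p of an exact permutation test is 0.1, and none is given. SDs are over 3 lines. Both tests were checked on simulated data, with planted changes larger than any genotype difference of a respiratory gene found here. Line spread was capped at its median over genes for the genotype test and left out for the F test. The check therefore does not show whether genotype differences of the size reported could be found.

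The respiratory genes and the 7 supporting lists were chosen with earlier results of these data known. The text names Stat3, the 3 genes per complex with the smallest genotype p, genes whose lines differed and spanned over 0.5, genes with tissue-restricted isoforms, genes whose probes disagree by over 0.3, and 2 genes per supporting list. Ndufa13, Cox5b, Cox5a, Ndufb6, Atp5b, Atp5c1, Atp5l, Atp5j, Ndufv1, Ndufs8 and Ndufb8 were named beside the rule, after their values were seen. Same-numbered lines did not deviate together (correlations of -0.27 to 0.21 over 3 pairs), nor did same-numbered arrays of different lines (-0.26 to 0.31 over 15 pairs), so numbers were not taken as pairing samples. Alternatives changed the normalization, background, offset, filter, probe choice, moderation, block, and the lines and arrays left out.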

Additional observations from a re-analysis of the deposited data

How the results depend on the processing

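No respiratory gene passed the genotype test under any of the 20 alternatives. The median genotype difference (-0.04) moved to 0.19 with a common median over all probes, beside 0.21 for all genes, and leaving out a line or the arrays of a replicate number gave -0.07 to -0.02. The number of genes wholly lower (12) was 10 to 24 in those, 24 without constitutively active line 1. The 8 genes that differed among wild-type lines became 13 with the deposited log2 values and without background correction, 14 with trend and robust moderation, 1 with a common median over all probes, and 4 to 10 with an array left out. Leaving out either array of wild-type line 2 or 3 gave 4 or 5, as did leaving out 1 array of wild-type line 1. The 28 among constitutively active lines became 6 with that scaling and 18 to 29 with an array left out, 18 without the second array of line 3. With a replicate block the counts were 27 among constitutively active and 6 among wild-type lines, and the genotype count stayed 0 with the line number as a replicate block. These causes were not tested.

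Of 30 genes named by rule, 14 changed sign somewhere, all without passing. A common median over all probes moved the median of all genes to 0.21. The differences were then Sdhb 0.11, Sdhc 0.20, Cox6c 0.036, Ndufaf5 0.19, Cox6a1 0.19, Atp5g1 0.21, Atp5g2 0.13, Atp5g3 0.12 and Ndufs3 0.018. With a common median over kept probes they were 0.011 for Sdhc and 0.015 for Atp5g1. Cox6b1 gave -0.0076 with the deposited values and -0.019 with the mean of its probes, and Ndufs4 -0.15 with that mean. Leaving out lines or arrays gave ranges of -0.34 to 0.098 for Ndufa6, -0.098 to 0.12 for Cox6b1, -0.0013 to 0.096 for Ndufs4, -0.26 to 0.025 for Sdhb, -0.14 to 0.13 for Ndufaf5, -0.094 to 0.020 for Cox6a1, -0.087 to 0.025 for Atp5g1, -0.098 to 0.0095 for Sdhc, -0.96 to 0.27 for Cox7a1 and -0.082 to 0.21 for Cyc1.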
